A study of Mus musculus with 28 samples.

Results

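Transcripts of 7 genes were followed in mouse tail tendon. They comprise the 4 Fc gamma receptors Fcgr1, Fcgr2b, Fcgr3 and Fcgr4 and the signalling adaptor Fcer1g (the FcR gamma chain). The Fc receptor-like gene Fcrl2 and Clec4n, which encodes the C-type lectin Dectin-2, complete the list. These are 7 of the 25719 genes counted in each library. The genes were listed by name and function, but Fcrl2 and Clec4n were chosen by their difference between genotypes at the early stage, and the list was drawn up with genotype differences at both stages known. Genotype differences of these 7 genes, and of the ratio between them, are therefore given below as descriptions without a test.

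The libraries came from tail tendon fascicles, processed as a whole-tissue homogenate, of Fosl-2(Tg) mice and of their non-transgenic (WT) controls from the same breeding, all on a C57BL/6 background. Fosl-2(Tg) mice carry a randomly inserted copy of the murine Fosl2 gene, a subunit of the AP-1 transcription factor, behind the H2Kb promoter of an MHC class I gene, with eGFP as a marker. That promoter is active in many cell types, so the transgene is not limited to tendon cells or to leukocytes. The early stage (6 to 8 weeks of age) comprised 7 WT and 8 Fosl-2(Tg) mice, all male, and the established stage (older than 14 weeks) comprised 6 WT and 7 Fosl-2(Tg) mice, of which 1 per genotype was male. Stage and sex were thus almost the same split. Each library came from 1 mouse.

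Fc gamma receptors bind the constant part of IgG and report immune complexes to the cell. Fcgr1, Fcgr3 and Fcgr4 are the activating receptors and signal through the ITAM motif of Fcer1g, on which the kinase Syk docks. Fcgr2b is the single inhibitory member: it carries an ITIM motif in its own tail and recruits the phosphatase SHIP-1 (Inpp5d), which turns the same signal off. Dectin-2 recognises mannose-rich fungal glycans and also has no signalling motif of its own, so it borrows Fcer1g and leads through Syk to Card9 and NF-kB. In tissues the genes are known mainly from macrophages, monocytes and other myeloid cells, and Fcrl2 from tissue macrophages.

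Library totals ran from 9645598 to 42646727 counted reads at the early stage and from 9664327 to 66894396 at the established stage. Levels are CPM, the reads of a gene relative to library size, scaled with trimmed-mean (TMM) factors over all 28 libraries. Fosl2 itself stood at 88.7 ± 26.1 CPM (SD, n = 7) in early WT and 102 ± 40.5 (n = 8) in early Fosl-2(Tg) tendons, and at 111 ± 32.7 (n = 6) and 143 ± 15.8 (n = 7) at the established stage. Its genotype groups overlapped at both stages, and neither difference passed (edgeR quasi-likelihood test, adjusted p = 0.918 and 0.142). The tendon markers Scx, Tnmd and Col1a1 were present in all libraries, but Col1a1 was at 989 CPM in its lowest established Fosl-2(Tg) library and at 44271 CPM in the lowest established WT library. Summed levels of 10 skeletal muscle markers ranged from 43.3 to 17204 CPM over the 28 libraries. In whole tissue, fewer cells of a type and less RNA per cell cannot be told apart.

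Fcgr2b, Fcgr4 and Fcgr3 lie side by side within 107 kb of chromosome 1 (GRCm39, chr1:170786186-170893549), with Fcer1g nearby at chr1:171057141-171062219. Fcgr1 (chr3:96190225-96201338) and Fcrl2 (chr3:87156616-87181827) are on chromosome 3, and Clec4n (chr6:123206802-123223980) is on chromosome 6. The inhibitory Fcgr2b and the activating Fcgr3 are close copies over their extracellular part, which bears on how reads are told apart. In the annotated transcripts, 316 bases of coding sequence in exons 3 and 4 differed at 3 positions between the reference transcripts of Fcgr2b and Fcgr3. The last 300 of these bases are shown because they are the stretch in which a short read could come from either gene. Capitals mark the 3 differing bases.
Fcgr2b: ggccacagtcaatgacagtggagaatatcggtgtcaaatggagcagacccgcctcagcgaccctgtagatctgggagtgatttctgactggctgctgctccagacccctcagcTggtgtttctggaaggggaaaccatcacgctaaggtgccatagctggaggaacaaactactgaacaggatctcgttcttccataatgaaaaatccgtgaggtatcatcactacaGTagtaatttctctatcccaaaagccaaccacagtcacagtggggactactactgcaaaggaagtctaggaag
Fcgr3: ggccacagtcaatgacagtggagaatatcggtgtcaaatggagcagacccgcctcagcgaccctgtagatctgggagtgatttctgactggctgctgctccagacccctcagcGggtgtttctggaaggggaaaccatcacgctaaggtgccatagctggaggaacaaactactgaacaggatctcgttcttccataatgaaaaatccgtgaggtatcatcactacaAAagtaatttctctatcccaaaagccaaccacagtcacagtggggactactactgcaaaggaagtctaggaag
Counted from 1 at the 5′ end of the printed stretch, and giving the Fcgr2b base first, the differences were T114G, G228A and T229A. In Fcgr2b the stretch lies on the minus strand at chr1:170795549-170795634 (exon 3) and chr1:170794056-170794269 (exon 4), and in Fcgr3 at chr1:170885260-170885345 and chr1:170881549-170881762 (GRCm39). Of all distinct 50-base stretches in the transcripts of Fcgr2b, 2.80% also occurred in Fcgr3, and of those of Fcgr3, 4.81% occurred in Fcgr2b. For stretches of 100 bases these shares were 0.70% and 1.14%, and the study sequenced longer, paired reads. The other 5 genes shared no 50-base stretch with any of the other 32 Fc receptor and C-type lectin genes compared. How reads that fit both genes were counted is not stated, so a small part of either count may belong to the other gene.

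The inhibitory receptor Fcgr2b carried the largest genotype difference of the 6 members tested at the established stage. In early tendons it ranged from 20.7 to 27.6 CPM in WT mice (median 22.9) and from 15.0 to 22.9 CPM in Fosl-2(Tg) mice (median 18.5). All 8 early transgenic mice were below the WT mean, and the ranges overlapped. Established levels ranged from 13.95 to 24.2 CPM in WT mice (median 17.3) and from 33.0 to 93.0 CPM in Fosl-2(Tg) mice (median 41.6). Every established transgenic mouse lay above every WT mouse. The mean was 17.9 ± 3.57 CPM (SD, n = 6) in WT and 49.0 ± 20.4 CPM (n = 7) in Fosl-2(Tg), a 2.76-fold higher level (log2 fold change 1.46, SE 0.23). The highest mouse, replicate 7, stood apart from the rest, and without it the log2 fold change was 1.22. At the early stage the log2 fold change was -0.31 (SE 0.10).

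**Figure D1:**
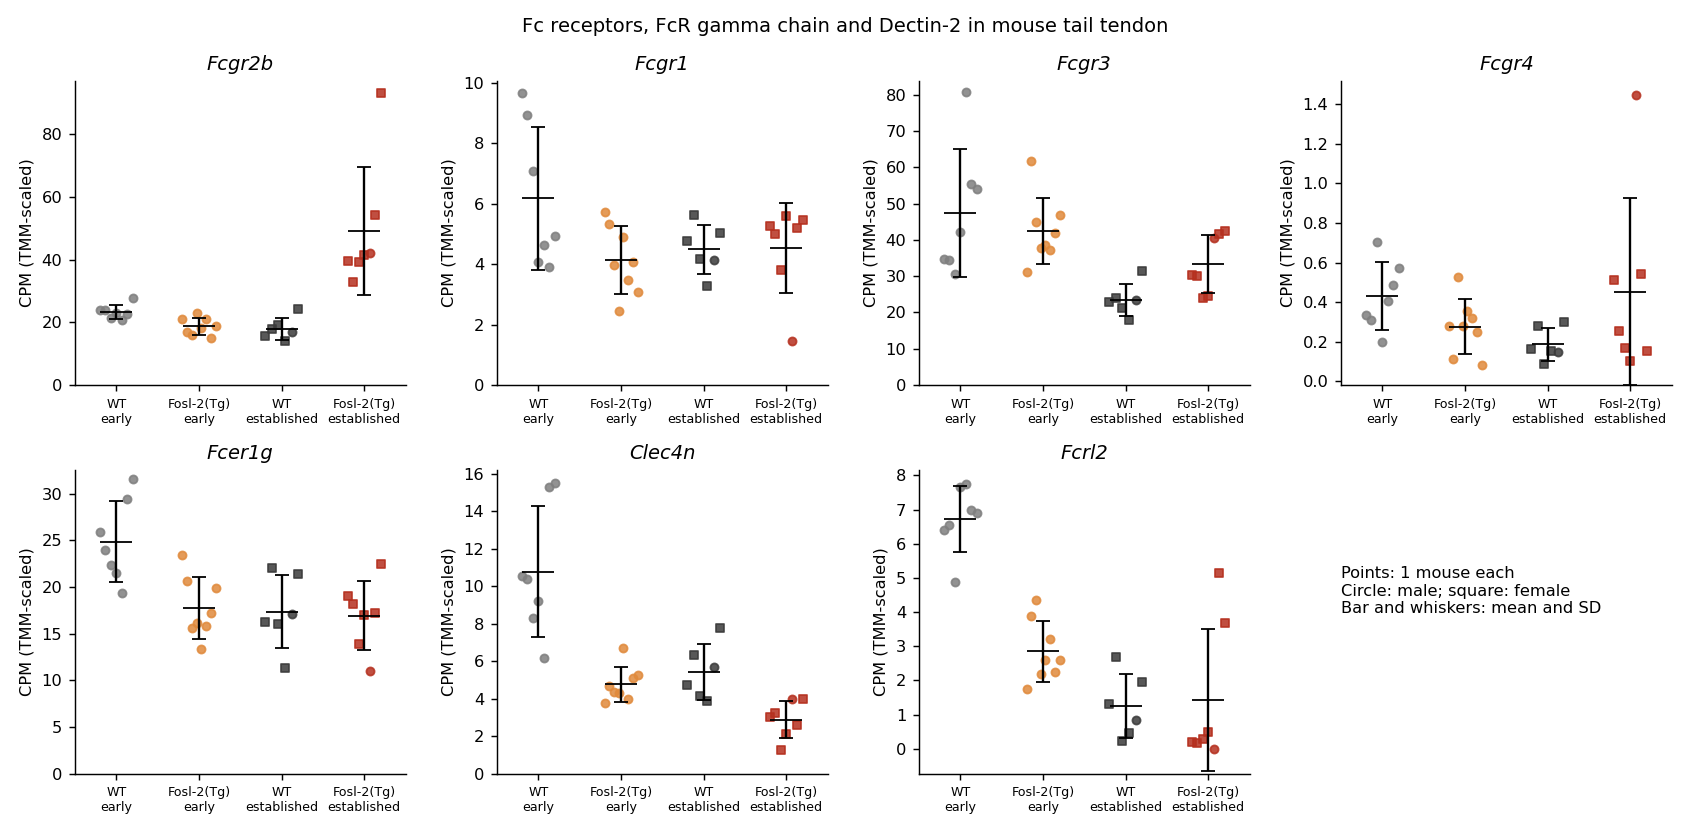
Level of each of the 7 genes in TMM-scaled CPM (vertical axis, linear, separate for each gene) in each mouse, by group. Circles are males, squares are females, and the bar with whiskers is the mean ± SD. Established Fosl-2(Tg) mice sit between 33.0 and 93.0 CPM for Fcgr2b, above all WT mice, while Clec4n and Fcrl2 are highest in early WT mice.

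Among the activating receptors, Fcgr3, which binds IgG with low affinity, was the most abundant Fc gamma receptor in CPM in 3 of the groups, at 47.4 ± 17.6 CPM (SD, n = 7) in early WT, 42.5 ± 9.16 (n = 8) in early Fosl-2(Tg) and 23.5 ± 4.45 (n = 6) in established WT tendons. In established Fosl-2(Tg) tendons it stood at 33.3 ± 8.03 CPM (n = 7), below Fcgr2b. Established Fcgr3 ranged from 17.97 to 31.4 CPM in WT (median 23.2) and from 23.9 to 42.5 CPM in Fosl-2(Tg) mice (median 30.3). All 7 transgenic mice were above the WT mean and 3 were above every WT mouse. The log2 fold change was 0.51 (SE 0.17) at the established and -0.16 (SE 0.19) at the early stage.

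Fcgr1, the high-affinity IgG receptor, was low in all groups. It stood at 4.50 ± 0.817 CPM (SD, n = 6) in established WT and 4.55 ± 1.49 (n = 7) in established Fosl-2(Tg) tendons. The log2 fold change was 0.03, with a 95% interval from -0.50 to 0.55. Replicate 5, the male of that group, was at 1.44 CPM, and the other 6 transgenic mice were between 3.82 and 5.59 CPM. At the early stage Fcgr1 ranged from 3.91 to 9.66 CPM in WT (median 4.95) and from 2.46 to 5.74 CPM in Fosl-2(Tg) mice (median 4.03). The log2 fold change was -0.58 (SE 0.23), and the groups overlapped. Fcgr4, the activating receptor of IgG2 subclasses, was near the detection limit, with 1 to 21 reads per library and group means from 0.188 to 0.453 CPM. It did not pass the filter on low counts in any comparison and was not tested in the main fits. Its highest value, 1.44 CPM from 20 reads, was again established Fosl-2(Tg) replicate 5.

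The shared adaptor Fcer1g ranged from 11.3 to 22.0 CPM in established WT (median 16.7) and from 10.97 to 22.5 CPM in established Fosl-2(Tg) mice (median 17.2), and the groups overlapped. The log2 fold change was -0.02, with a 95% interval from -0.39 to 0.34. In early tendons Fcer1g ranged from 19.4 to 31.6 CPM in WT (median 24.03) and from 13.3 to 23.4 CPM in Fosl-2(Tg) mice (median 16.7). All 8 early transgenic mice were below the WT mean of 24.9 CPM, with a log2 fold change of -0.49 (SE 0.13).

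Clec4n (Dectin-2) was lower in Fosl-2(Tg) tendons at both stages. In early WT mice it ranged from 6.19 to 15.5 CPM (median 10.4) and in early Fosl-2(Tg) mice from 3.79 to 6.73 CPM (median 4.52). Of the 8 transgenic mice, 7 lay below every WT mouse. At the established stage it ranged from 3.88 to 7.79 CPM in WT (median 5.21) and from 1.29 to 4.00 CPM in Fosl-2(Tg) mice (median 3.02), with 5 of the 7 transgenic mice below every WT mouse. The log2 fold changes were -1.17 (SE 0.18) and -0.90 (SE 0.25), or 2.25-fold and 1.87-fold lower levels. Clec4n and Fcgr2b, which both bear on Fcer1g signalling, thus differed in opposite directions at the established stage.

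Fcrl2, whose product resembles Fc receptors in its immunoglobulin domains, separated the early genotypes completely. It ranged from 4.87 to 7.75 CPM in early WT (median 6.91) and from 1.76 to 4.36 CPM in early Fosl-2(Tg) mice (median 2.59), a 2.37-fold lower level (log2 fold change -1.24, SE 0.17). In older mice both genotypes were low and uneven, at 1.24 ± 0.941 CPM (SD, n = 6) in WT and 1.43 ± 2.09 CPM (n = 7) in Fosl-2(Tg) mice. Replicates 6 and 7 of the transgenic group held 5.14 and 3.69 CPM, the other 5 were at 0.504 CPM or less, and replicate 5 had 0 reads. The established log2 fold change of 0.20 had a 95% interval from -1.74 to 2.15, and no difference was detectable at this spread.

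Fcgr4 aside, 6 members passed the filter on low counts and entered the genome-wide comparisons. Of these 6, 2 were called at the early stage (adjusted p of at most 0.05 over all genes), Fcrl2 and Clec4n, both lower in Fosl-2(Tg), where 0.0396% of the 15138 genes tested were called (0.00661% higher and 0.033% lower). With the replicate number as a block neither was called, and with all 28 libraries in 1 fit Fcrl2 was not (adjusted p = 0.734). At the established stage 2 of 6 were called, Fcgr2b higher and Clec4n lower, where 6.51% of 15862 genes were called (3.14% higher and 3.37% lower). Groups without overlap were seen for Fcrl2 at the early stage (0.0528% of all genes) and for Fcgr2b at the established stage (3.81%). The comparisons that chose the members are the same ones, so nothing is read from these counts. The median log2 fold change of the 6 members was -0.53 at the early stage, beside -0.01 for all genes, and 0.12 at the established stage, beside 0.01. Both groups of a stage enter these values, and the WT mice also enter the comparison of stages below. Fits that leave out 1 mouse reuse the values known when the members were chosen, so nothing is read from their calls either. When 1 mouse at a time was left out, Fcrl2 was called in all 15 early fits and Fcgr2b in all 13 established fits. Clec4n was called in 5 of 15 early fits (without WT replicate 3, 4 or 5 or Fosl-2(Tg) replicate 1 or 5) and in 2 of 13 established fits (without Fosl-2(Tg) replicate 5 or 7).

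**Figure D2:**
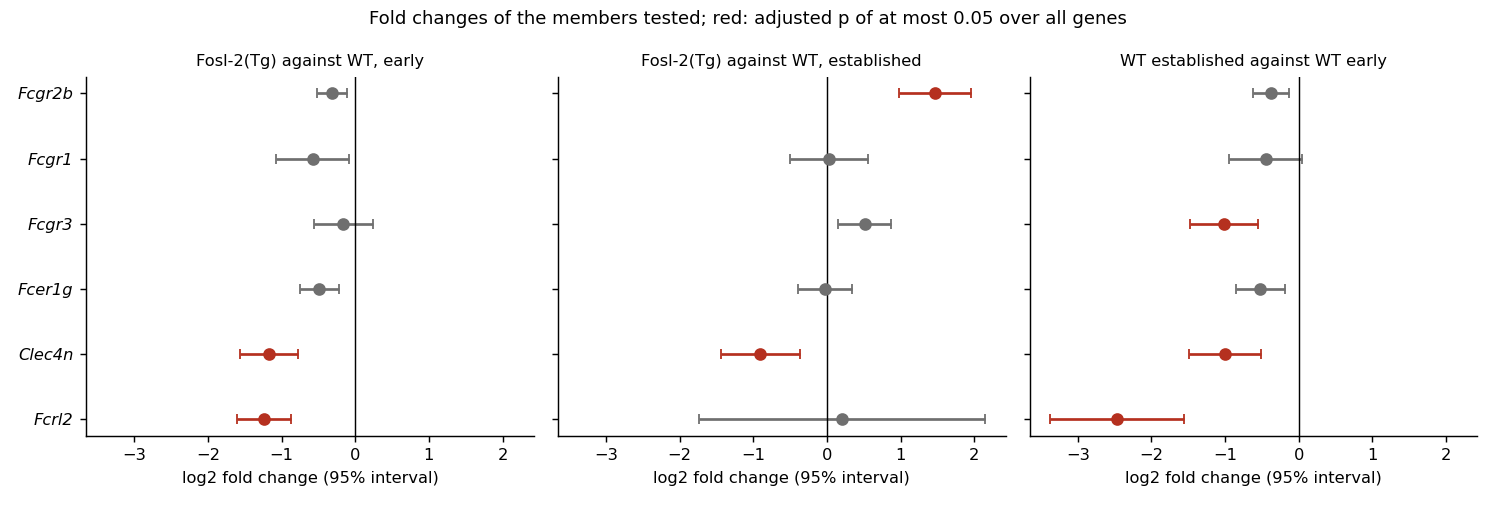
Log2 fold change with its 95% interval (horizontal axis) for the 6 members tested (vertical axis) in 3 comparisons. Red points were called at an adjusted p of at most 0.05 over all genes. Fcgr2b lies at -0.31 at the early and at 1.46 at the established stage, while Clec4n is below 0 in all 3 panels.

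The balance of activating to inhibitory receptors was taken per mouse as the summed reads per kilobase of Fcgr1, Fcgr3 and Fcgr4 over those of Fcgr2b. This ratio of counts within a library does not depend on how libraries were scaled. Its mean was 4.44 ± 1.61 (SD, n = 7) in early WT and 4.89 ± 1.48 (n = 8) in early Fosl-2(Tg) tendons, and the groups overlapped (log2 difference 0.15, SE 0.22). In established tendons it was 2.97 ± 0.3002 (n = 6) in WT and 1.58 ± 0.385 (n = 7) in Fosl-2(Tg) tendons. The ratio ran from 2.49 to 3.35 in established WT mice and from 0.972 to 2.03 in established transgenic mice, without overlap. On the log2 scale the transgenic group was lower by 0.94 (SE 0.16), a 1.92-fold lower ratio. In replicate 7 the inhibitory receptor made up 50.7% of the Fc gamma receptor reads per kilobase.

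Per kilobase, Fcgr2b made up 25.3 ± 1.99% (SD, n = 6) of the 4 receptors in established WT and 39.5 ± 6.30% (n = 7) in established Fosl-2(Tg) tendons. The share of Fcgr3 was 62.8 ± 1.64% and 52.2 ± 5.61%, and that of Fcgr1 was 10.7 ± 1.33% and 6.60 ± 2.58%. By group mean Fcgr3 was the leading Fc gamma receptor per kilobase in both. The sum of the 4 receptors was 12.1 ± 2.20 CPM per kilobase in established WT and 20.8 ± 5.62 in established Fosl-2(Tg) tendons. Taken alone against Fcgr2b, Fcgr3 gave a log2 difference of -0.91 and Fcgr1 one of -1.47 at the established stage, each without overlap between genotypes. Fcgr4 alone gave -0.55 with overlap, from counts of 20 or fewer reads per library.

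**Figure D3:**
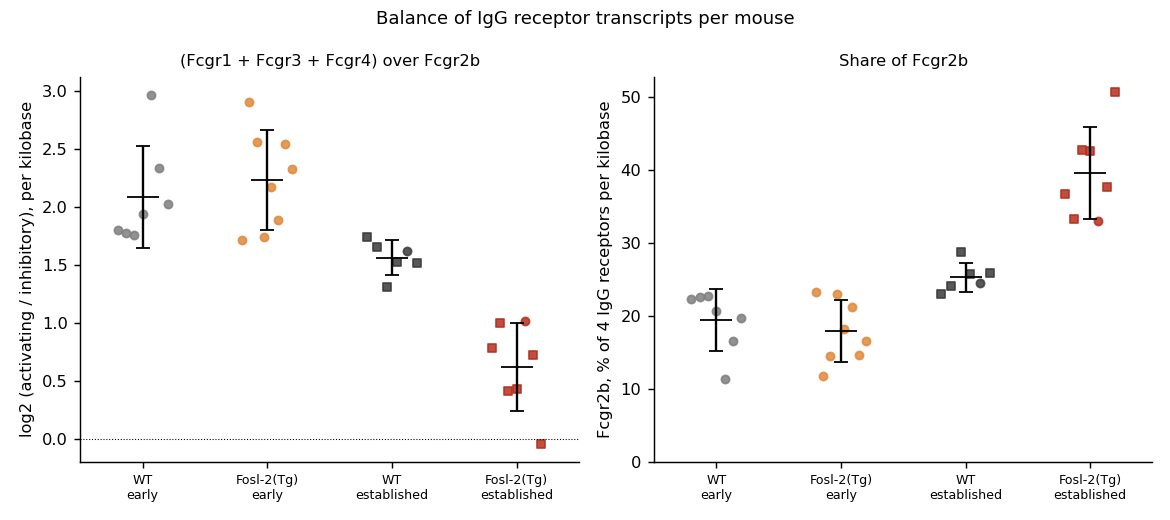
Left, log2 of the summed Fcgr1, Fcgr3 and Fcgr4 reads per kilobase over Fcgr2b reads per kilobase; right, Fcgr2b as a percentage of the 4 receptors per kilobase, in each mouse by group. Circles are males, squares are females, and bars with whiskers are the mean ± SD. Established Fosl-2(Tg) mice lie between -0.04 and 1.02 on the log2 scale, below all established WT mice.

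Between WT mice of the 2 stages, all 6 tested members had lower levels in the older group. All 15 macrophage markers, described below, were lower there too, with a median log2 fold change of -0.35. Stage, age and sex cannot be told apart in this comparison, and it shares its WT mice with the comparisons above. Fcrl2 and Clec4n were chosen by values in which the early WT mice took part, so their stage differences are also given without a test. Fcrl2 went from 6.73 ± 0.968 CPM (SD, n = 7) to 1.24 ± 0.941 CPM (n = 6), a log2 fold change of -2.47 (SE 0.43), and its 2 groups did not overlap, which held for 2.25% of all genes. Clec4n had a log2 fold change of -0.997 (SE 0.23), and its groups overlapped. The other 4 members were listed by function, but with genotype differences that used these WT mice known. Of these 4, Fcgr3 fell by 1.02 on the log2 scale (SE 0.21, edgeR quasi-likelihood test over 15645 genes, adjusted p = 0.0207). Fcgr2b (log2 fold change -0.38, adjusted p = 0.0742), Fcer1g (-0.52, adjusted p = 0.0678) and Fcgr1 (-0.45, adjusted p = 0.272) did not pass. In this comparison 4.74% of all genes were called, 1.98% higher and 2.76% lower. The call of Fcgr3 was lost without established WT replicate 1 (adjusted p = 0.0508), 3 (adjusted p = 0.0567) or 4 (adjusted p = 0.0572). The 1 established WT male differed from the 7 early males by log2 fold changes of -2.98 for Fcrl2, -1.01 for Fcgr3 and -0.91 for Clec4n, given without a test because 1 mouse has no spread of its own.

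The activating to inhibitory ratio also fell between the WT groups, by 0.52 on the log2 scale, from 2.09 ± 0.44 (SD, n = 7) to 1.56 ± 0.15 (n = 6). No older WT mouse reached the lowest younger one, and the exact two-sided permutation test gave p = 0.00117, the smallest it can give with 7 against 6 mice. Both WT groups also entered the genotype differences known when the genes were listed, so the p-values of this paragraph are not free of that choice. Of 3 tests of single receptors against Fcgr2b, Fcgr3 differed by -0.56 on the log2 scale (exact permutation p = 0.00466, adjusted 0.0140) and Fcgr4 by -0.82 (exact permutation p = 0.0326, adjusted 0.0490). Fcgr1 did not pass (0.0063, exact permutation p = 0.974, adjusted 0.974).

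Fcer1g had the highest level per kilobase of the 7 genes in early WT tendons, at 21.5 ± 3.78 CPM per kilobase, followed by Fcgr3 (15.3 ± 5.68), Clec4n (7.58 ± 2.45), Fcgr2b (3.98 ± 0.382), Fcgr1 (1.77 ± 0.683), Fcrl2 (1.57 ± 0.226) and Fcgr4 (0.336 ± 0.133; all SD, n = 7). Neighbours whose mean ± SD overlapped were Fcer1g and Fcgr3, Fcgr3 and Clec4n, and Fcgr1 and Fcrl2. In established Fosl-2(Tg) tendons the order was Fcer1g (14.6 ± 3.18), Fcgr3 (10.8 ± 2.60), Fcgr2b (8.37 ± 3.49), Clec4n (2.03 ± 0.690), Fcgr1 (1.302 ± 0.427), Fcgr4 (0.354 ± 0.368) and Fcrl2 (0.333 ± 0.488; all n = 7). Here Fcgr2b stood ahead of Clec4n, and the mean ± SD overlapped between Fcer1g and Fcgr3, Fcgr3 and Fcgr2b, Clec4n and Fcgr1, and Fcgr4 and Fcrl2.

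The signalling context was read from 127 partner genes in 8 lists: other Fc receptors, myeloid C-type lectins, ITAM adaptors and receptors, proximal kinases and effectors, the Card9 and NF-kB branch, inhibitory receptors and phosphatases, immunoglobulin ligands, and cytokine outputs. The lists were chosen with earlier results of these data known, so the adjusted p-values of partner genes are not free of that choice. At the early stage 85 passed the filter and 1 was called: Mgl2, a galactose-binding lectin of macrophages and dendritic cells, fell from 7.38 ± 1.09 CPM (SD, n = 7) to 3.36 ± 1.17 CPM (n = 8; log2 fold change -1.14, SE 0.18, adjusted p = 0.0277). This call was lost in 13 of the 15 fits that left out 1 mouse, all but those without WT replicate 4 or Fosl-2(Tg) replicate 1. Among the 85 genes 69 had negative and 16 positive log2 fold changes, with a median of -0.24.

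At the established stage 88 partner genes were tested, 7 rose and 1 fell, beside 6.51% of all genes. Dectin-1 (Clec7a), a beta-glucan receptor that signals through Syk, rose from 2.16 ± 0.867 CPM (SD, n = 6) to 8.03 ± 6.21 CPM (n = 7; log2 fold change 1.92, SE 0.41, adjusted p = 0.0210). The galactose-binding lectin Clec10a rose by 1.13 on the log2 scale (SE 0.21, adjusted p = 0.0136). Clec7a and Clec10a were 2 of the 10 lectins tested, whose median log2 fold change was 0.82. Of 27 kinases and effectors 3 rose: Syk itself, from 25.6 ± 3.20 to 35.5 ± 5.12 CPM (log2 fold change 0.48, SE 0.11, adjusted p = 0.0252), the adaptor Lat2 (0.84, adjusted p = 0.0237) and the ubiquitin ligase Cblb (0.56, adjusted p = 0.0292). On the inhibitory side Inpp5d, the phosphatase recruited by Fcgr2b, rose from 27.3 ± 3.48 to 39.2 ± 8.26 CPM (0.53, SE 0.14, adjusted p = 0.0447). Milr1, an ITIM receptor, also rose (0.51, adjusted p = 0.0462), while Pilra, another ITIM receptor, fell (-1.17, SE 0.29, adjusted p = 0.0331). Of the 20 inhibitory genes tested 10 had positive and 10 negative values, with a median of 0.03. By edgeR 0 of 8 ITAM adaptors and receptors, 0 of 12 genes of the Card9 branch, 0 of 3 other Fc receptors and 0 of 7 cytokines passed. At an unadjusted p under 0.05 each of these lists had 2 genes, and DESeq2 called 1, 2, 1 and 1. Leaving out 1 mouse at a time gave between 1 and 9 partner genes, with 1 without WT replicate 1, 3 without WT replicate 4 or 5 or Fosl-2(Tg) replicate 1, 4 without WT replicate 6, and 5 without replicate 2 of either genotype. Clec10a passed in all 13 such fits, Clec7a in 12, Lat2 and Syk in 10 each, Cblb in 7, Pilra in 5, and Inpp5d and Milr1 in 2 each. Inpp5d and Milr1 were also lost in females alone (adjusted p = 0.0884 and 0.113) and without the filter on low counts (adjusted p = 0.0563 and 0.0670).

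**Figure D4:**
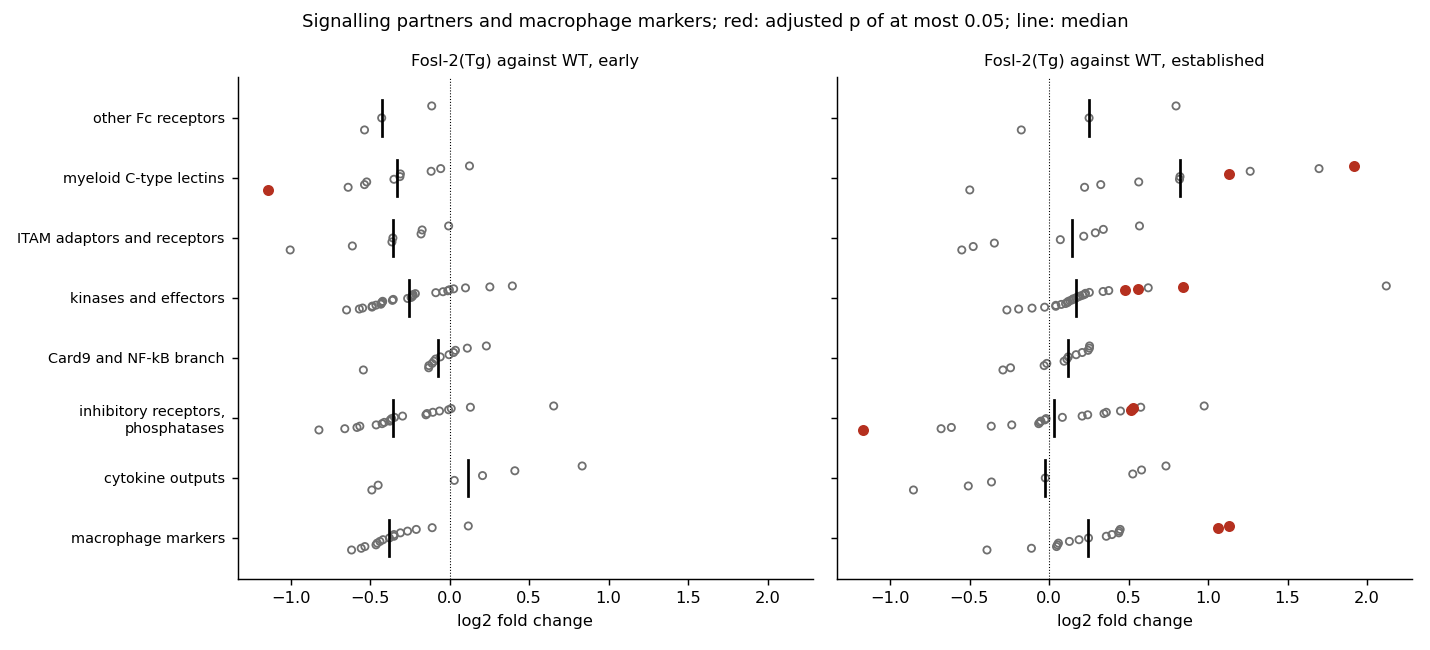
Log2 fold change of Fosl-2(Tg) against WT (horizontal axis) for each tested gene of 7 partner lists and of the macrophage markers (rows), at the early stage (left) and the established stage (right). Red points passed at an adjusted p of at most 0.05, and the vertical line in each row is the median, which for myeloid C-type lectins is -0.33 at the early and 0.82 at the established stage.

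The test of whether the genotype difference itself changed between stages, over all 28 libraries, passed for 14 of 89 partner genes, 13 with a higher and 1 with a lower difference at the established stage. Over all 16082 genes 7.43% passed, 3.43% higher and 4% lower. In the same test 4 of 5 erythroid markers passed with differences of 3.504 to 5.52 (Hba-a1 and Hbb-bt), 4 of 15 macrophage markers passed with higher and 4 of 10 tendon markers with lower differences. Summed erythroid levels were 7.79 to 33.2 CPM in the other groups and 10.3 to 126.7 CPM in established Fosl-2(Tg) mice, and their part in the partner genes was not tested. Among the lectins Mgl2 had the widest change (log2 difference between stages 2.83, SE 0.53, adjusted p = 0.00399), and Clec10a (1.76, adjusted p = 0.00498), Clec7a (1.79, adjusted p = 0.0237), Clec4a1 (1.09, adjusted p = 0.0127) and Clec4a3 (1.12, adjusted p = 0.0437) passed as well. Downstream, Syk (0.90, SE 0.20, adjusted p = 0.00937), Lat2 (0.81, adjusted p = 0.0360) and Nckap1l (0.80, adjusted p = 0.0409) passed. Of the inhibitory genes, Inpp5d (0.89, adjusted p = 0.0127), Milr1 (0.87, adjusted p = 0.00994) and Cd300a (1.26, adjusted p = 0.0285) passed. Trim21, the cytosolic Fc receptor, and Fcer2a, the low-affinity IgE receptor, passed at 0.78 (adjusted p = 0.0280) and 1.22 (adjusted p = 0.0311). The kinase Map3k7 had the opposite sign (-0.48, SE 0.13, adjusted p = 0.0245). In the same fit the stage difference of Fcgr2b was 1.77, given as a description. Without the 2 established males, a choice made after seeing the data, 11 partner genes passed. The test was not repeated with 1 mouse left out at a time.

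Between the WT groups 7 of 87 partner genes passed. Of the 87 genes 61 had negative and 26 positive log2 fold changes, and all 15 macrophage markers had negative ones. Fcgrt, the neonatal Fc receptor that recycles IgG, fell from 114 ± 9.25 CPM (SD, n = 7) to 84.9 ± 4.41 CPM (n = 6; log2 fold change -0.43, SE 0.07, adjusted p = 0.00629). The lectins Clec4a3 (-0.9998, adjusted p = 0.0167), Clec4d (-1.21, adjusted p = 0.0372) and Clec4a2 (-0.82, adjusted p = 0.0440), which lie in the same gene family as Clec4n, fell, as did the ITIM receptors Cd300a (-0.80, adjusted p = 0.0378) and Lilrb4a (-0.51, adjusted p = 0.0469). Clec9a, a lectin of dendritic cells, rose (1.29, adjusted p = 0.0453). Without 1 mouse the count was between 2 and 10, and it was 2 without early WT replicate 1 or established WT replicate 1, 3, 4 or 5, and 3 without early WT replicate 6 or 7. Fcgrt and Clec4a3 passed in all 13 such fits, Cd300a in 6, Clec4d and Clec9a in 4 each, and Clec4a2 and Lilrb4a in 3 each.

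Transcripts of most immunoglobulin genes were almost absent from the tissue. Of 13 immunoglobulin genes 12 were under 1 CPM in every group, and Ighg1, an IgG heavy chain, had 0 reads in all 28 libraries. Ighm, the IgM heavy chain, was the exception, at 9.53 ± 1.74 CPM (SD, n = 6) in established WT and 4.12 ± 2.54 CPM (n = 7) in established Fosl-2(Tg) tendons, a difference that did not pass (log2 fold change -1.21, SE 0.39, adjusted p = 0.0759). Antibody protein from blood leaves no transcript in the tissue and was not measured. Of the cytokines, Il6 and Il1b were under 1 CPM in every group mean, and Tnf was at 1.54 ± 0.543 CPM in established WT and 0.840 ± 0.394 CPM in established Fosl-2(Tg) tendons, without passing.

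Macrophage markers were present in every library and moved with several members. The mean log2 CPM of 15 such markers, none of them a member, was 5.87 ± 0.22 (SD, n = 7) in early WT, 5.53 ± 0.16 (n = 8) in early Fosl-2(Tg), 5.46 ± 0.23 (n = 6) in established WT and 5.74 ± 0.25 (n = 7) in established Fosl-2(Tg) tendons. Their summed level ranged from 1134 to 1776 CPM, 1021 to 1464 CPM, 890 to 1420 CPM and 1122 to 1941 CPM in these groups. At the early stage 0 of 15 markers passed by edgeR, with 9 at an unadjusted p under 0.05 and 2 by DESeq2, and 14 had negative values. At the established stage 2 of 15 rose, the haemoglobin scavenger receptor Cd163 (log2 fold change 1.07, SE 0.14, adjusted p = 0.00465) and the cathepsin Ctss (1.13, SE 0.25, adjusted p = 0.0228). Set against the marker mean of the same library, Fcgr2b was higher by 1.11 (log2) in established Fosl-2(Tg) than in WT mice, whereas Fcgr3 differed by 0.21, Fcer1g by -0.31, Fcgr1 by -0.35, Fcrl2 by -1.06 and Clec4n by -1.21. At the early stage the same values were 0.03 for Fcgr2b, 0.24 for Fcgr3, -0.14 for Fcer1g, -0.19 for Fcgr1, -0.91 for Fcrl2 and -0.77 for Clec4n. The differences of Fcgr2b at the established stage, of Clec4n at both stages and of Fcrl2 at the early stage were thus larger than that of the marker mean. The single markers Cd163 and Ctss, at 1.07 and 1.13 at the established stage, exceeded that mean too. Relative to the markers, early and established WT mice were at -1.33 and -1.32 for Fcgr2b and at -3.31 and -3.29 for Fcgr1. For Fcer1g these values were -1.25 and -1.37, and for Fcgr3 -0.38 and -0.92. For Clec4n they were -2.50 and -3.04, and for Fcrl2 -3.12 and -5.42.

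**Figure D5:**
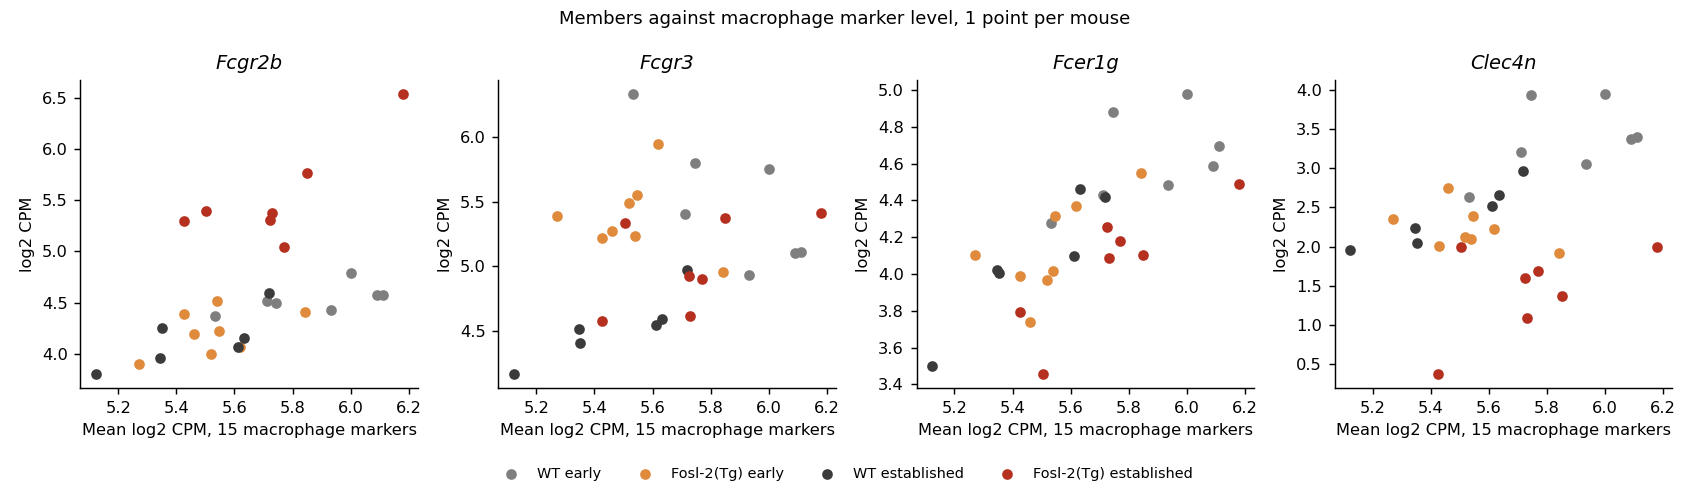
Log2 CPM of Fcgr2b, Fcgr3, Fcer1g and Clec4n (vertical axes) against the mean log2 CPM of 15 macrophage markers (horizontal axis), 1 point per mouse, coloured by group. Established Fosl-2(Tg) mice (red) lie above the other groups for Fcgr2b, by 1.11 relative to the markers against established WT, and below established WT for Clec4n, by -1.21.

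Markers of other Fc receptor-bearing cells were mostly low, apart from some dendritic, B and plasma cell markers. All 10 neutrophil markers had group means under 1 CPM, with summed levels from 0.250 to 2.00 CPM in the first 3 groups and up to 8.93 CPM in established Fosl-2(Tg) tendons, and Ly6g had reads in 1 library. All 10 T and NK cell markers were under 1 CPM, with summed levels from 0.833 to 2.48 CPM over all mice. Of 8 mast cell markers at least 7 were under 1 CPM in each group, and Fcer1a, the IgE-binding chain, had 0 reads in all libraries. Of 8 B and plasma cell markers 6 were under 1 CPM in each group, among them Ms4a1, at 0.102 CPM or less in every group mean. Summed levels of the 8 ran from 103 to 472 CPM over all mice. Of these markers Sdc1 was at 169 ± 22.0 CPM in established WT and 63.2 ± 34.3 CPM in established Fosl-2(Tg) tendons (edgeR log2 fold change -1.41, adjusted p = 0.0299). Dendritic cell markers, 8 genes, summed to between 10.8 and 40.4 CPM except in established Fosl-2(Tg) tendons, where they ranged from 18.1 to 411 CPM. Zbtb46, 1 of these markers, was at 13.2 ± 1.86 CPM in established WT and 13.1 ± 0.707 CPM in established Fosl-2(Tg) tendons. Of the 3 tested between established genotypes, 2 had positive and 1 negative values, and 1 passed. This was Cd74, at 5.30 ± 4.29 CPM in WT and 78.9 ± 120 CPM in Fosl-2(Tg) tendons (edgeR log2 fold change 3.89, SE 1.08, adjusted p = 0.0473). Tendon markers moved with genotype at that stage too, with 4 of 10 lower and summed levels of 7228 to 81160 CPM in Fosl-2(Tg) and 101560 to 192240 CPM in WT mice. Fcgr2b is also known from sinusoidal endothelium. Stab2, a sinusoidal endothelial receptor, was at 2.25 ± 0.373 CPM (SD, n = 6) in established WT and 3.78 ± 1.32 CPM (n = 7) in established Fosl-2(Tg) tendons, and Lyve1, of lymphatic endothelium and some macrophages, at 77.3 ± 18.1 and 124 ± 30.9 CPM. Of 12 endothelial genes, listed after the data were seen, 11 were tested between established genotypes. In edgeR Lyve1 rose (log2 fold change 0.68, adjusted p = 0.0456) and the lymphatic regulator Prox1 fell (-1.67, adjusted p = 0.0128). Of these 11 genes 4 had positive and 7 negative values, with a median of -0.08. Cdh5, another endothelial gene, was at 7.735 ± 7.25 CPM in established WT and 2.78 ± 3.05 CPM in established Fosl-2(Tg) tendons. Which cells carried the members' transcripts was not tested.

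Across the 28 mice, after subtracting each group's mean, the 6 members with enough reads varied together only in part. Of 15 pairs, none passed with Pearson's r (permutation test, adjusted p of 0.118 or more), and 4 passed with Spearman's rho: Fcgr3 with Fcrl2 (rho = 0.54, r = 0.37), Fcgr3 with Clec4n (rho = 0.53, r = 0.37), Fcer1g with Clec4n (rho = 0.52, r = 0.41), each at an adjusted permutation p = 0.0421, and Fcgr1 with Fcer1g (rho = 0.48, r = 0.52, adjusted permutation p = 0.0462). Without the 2 mice farthest from the median, r was 0.40, 0.73, 0.57 and 0.35. Fcgr2b and Fcgr3, the pair that shares sequence, had rho = 0.15 and r = 0.25 (adjusted permutation p = 0.521 and 0.2995). The genes whose levels followed each member most closely over the same 28 mice, out of 16082, were Layn, Ccl6 and Il13ra1 for Fcgr2b (rho from 0.75 to 0.76), Ctsc, Mrc1 and Clec5a for Fcer1g (0.80 to 0.84), Fgd2, Dusp6 and Plxnc1 for Fcgr1 (0.83 to 0.86), Fancb and Cog6 for Fcgr3 (0.85 to 0.86), Cd84, Ulbp1 and H2ac10 for Fcrl2 (0.81 to 0.83), and Polr2h, Tlr13 and Plek for Clec4n (0.77 to 0.82). Such ranks over all genes share library depth and tissue makeup and are given as a description.

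The Fosl2 product binds DNA as part of AP-1, so the RefSeq promoter windows (GRCm38.p6, from 250 bases before to 50 after a start) were searched for AP-1 and for motifs of factors known at myeloid Fc receptor genes. Windows were found for 6 members, with Fcrl2 under its older symbol Fcrls. All matched GRCm39 once, and each start lay inside the annotated gene. Clec4n had no entry. On both strands, AP-1 (TGANTCA) was found in 0 of the 6 genes and in 7.81% of all 32851 windows. The PU.1 core (GAGGAA, in 28.3% of windows) was found for Fcgr1, Fcgr3, Fcgr4 and Fcrl2, an interferon-stimulated response element (GAAA and GAAA with any 2 bases between them, 3.44%) for Fcgr4, and a STAT site (TTCNNNGAA, 8.30%) for Fcgr1. Fcgr2b and Fcer1g held none of the 4 motifs. The 2 activating receptor genes with an interferon or STAT motif are shown upstream of their first annotated exon, with these motifs in capitals.
Fcgr4, chr1:170846245-170846465, plus strand: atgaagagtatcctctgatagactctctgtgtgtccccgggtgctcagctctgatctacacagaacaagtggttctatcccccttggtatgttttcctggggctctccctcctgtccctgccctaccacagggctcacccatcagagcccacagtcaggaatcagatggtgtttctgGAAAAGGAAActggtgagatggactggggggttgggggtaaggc
Fcgr1, chr3:96201339-96201535, minus strand: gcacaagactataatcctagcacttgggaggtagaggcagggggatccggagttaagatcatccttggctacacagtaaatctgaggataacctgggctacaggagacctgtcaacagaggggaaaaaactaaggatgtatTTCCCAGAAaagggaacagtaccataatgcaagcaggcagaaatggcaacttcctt
Both stretches are given in GRCm39 and read 5′ to 3′ towards the gene. A match is a run of letters and was not tested for binding.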

How the data were processed

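Total RNA of tail tendon fascicles was rRNA-depleted and sequenced. Per the study's methods, the authors aligned reads to GRCm39 (GENCODE M26) with STAR and deposited raw read counts per gene from featureCounts, 1 file per mouse; tool versions, the strand setting and the treatment of multi-mapping reads are not given in the sources used here. Of 25719 gene identifiers 25505 were matched to a symbol by identifier. Library totals, 9645598 to 66894396 counts, limit the precision of low genes such as Fcgr4, and p-values measure the spread between mice. No 2 libraries of the same group agreed within sampling noise.

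Counts were tested with edgeR 4.0.16 (quasi-likelihood, TMM scaling, filterByExpr with a minimum count of 10 and a total of 15) in R 4.3.3, within each stage, between WT stages, and for the interaction over 28 libraries. Benjamini-Hochberg adjustment ran over all genes tested, with a threshold of 0.05. Alternatives were DESeq2 1.42.0, RLE scaling, no filter, a joint fit, a replicate block, a single sex, leaving out tissue genes and leaving out each mouse. The fit was tested on simulated data with 200 changed genes. SE is the log2 fold change over the square root of F. Log2 CPM used a prior count of 2. Correlations and ratio tests used SciPy permutation tests.

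Members and lists were chosen with earlier results of these data known. The stage test was planned for all members, and is given as a description for Fcrl2 and Clec4n, whose choice used early WT values. All members were named, and of each partner list the genes that passed (at most 6 by smallest adjusted p, or for a list with none the gene with the smallest). The 3 genes most alike to a member were taken by Spearman correlation of group-centred log2 CPM. For Fcgr3 2 of the 3 are given, and 1 is not reported here. Replicate numbers come from the sample labels. Deviations of same-numbered early mice of the 2 genotypes had correlations of 0.140 to 0.404, but none was highest with its own number. Established ones ran from -0.225 to 0.689, and replicates 1 and 4 were highest with their own number. The labels do not say that same-numbered mice were pairs.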

Additional observations from a re-analysis of the deposited data

Results flagged for a closer look

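Of 32 groups of values examined, 3 held a mouse far from the rest of its group, and such a gap arises by chance in a small share of groups. All 3 were among established Fosl-2(Tg) mice. Replicate 7 was high for Fcgr2b at 93.0 CPM. Replicate 5, the male of the group, was low for Fcgr1 at 1.44 CPM and high for Fcgr4 at 1.44 CPM, each from 20 reads.

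The genotype difference changed between stages, by the interaction test of edgeR over all genes, for 14 partner genes. The log2 differences (established minus early) were 2.83 for Mgl2, 1.79 for Clec7a, 1.76 for Clec10a, 1.26 for Cd300a, 1.22 for Fcer2a, 1.12 for Clec4a3, 1.09 for Clec4a1, 0.90 for Syk, 0.89 for Inpp5d, 0.87 for Milr1, 0.81 for Lat2, 0.80 for Nckap1l, 0.78 for Trim21 and -0.48 for Map3k7. Stage and sex were almost the same split, so the 2 cannot be told apart here.

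For Fcgr2b every early Fosl-2(Tg) mouse lay below and every established Fosl-2(Tg) mouse above the WT mean of its stage, and its log2 fold changes differed by 1.78. Fcgr2b was a member chosen with these values known, so this difference was not tested.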

How the results depend on the processing

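Of 209 tested values, counts and ratios recomputed under another setting, 153 kept their call or size, 35 lost and 3 gained a call, 17 moved and 1 reversed; of 411 recomputed without 1 mouse, 250 kept it, 108 lost and 2 gained a call, and 51 moved. The members' genotype values, which carry no test, stayed within 1 SD in all 78 and 168 such fits, but 3 and 13 changed sign (Fcgr1, Fcgr3, Fcer1g or Fcrl2, none of them called where this happened) and 5 and 21 lost a call (Fcrl2 or Clec4n). Established Fcrl2 went from 0.20 to -1.11 with the replicate block and to -0.53 without Fosl-2(Tg) replicate 6. The reversed value was the WT stage difference of Fcgr1 over Fcgr2b alone, 0.0063 beside -0.52 for the full ratio. The causes of the changes below were not tested, except that single-sex fits use fewer mice. At the early stage the count of partner genes (1) was 2 with DESeq2 and 0 with 28 libraries in 1 fit, and that of members (2) was 1 with 28 libraries and 0 with the replicate block, where adjusted p was 0.0713 for Fcrl2 and 0.0890 for Clec4n. At the established stage partner genes (8) were 21 with DESeq2, 5 with the replicate block and 4 in females, and members (2) were 1 without a filter and 1 in females. The labels do not say that same-numbered mice were pairs at either stage. With the block, established Fcgr2b had a log2 fold change of 1.23 and 3 members were called. Between WT stages partner genes (7) were 13 with DESeq2 and 4 without a filter. Members (3) were 6 with DESeq2, which was run without the filter on low counts (Fcgr4 included, Fcgr1 not). The fit in males had 1 established mouse, so its counts are not given. The share of all genes called under these other settings is not given here, so nothing is read from the members' counts. Without 1 mouse the early counts ran from 0 to 1 partner genes and 1 to 2 members, the established ones from 1 to 9 and 1 to 2, and those of WT stages from 2 to 10 and 1 to 4. The activating to inhibitory difference between genotypes was -0.42 at the early stage for Fcgr4 alone, and -0.55 for Fcgr4 alone and -1.47 for Fcgr1 alone at the established stage. Without 1 mouse it ran from 0.05 to 0.29 early, from -1.01 to -0.83 established and from -0.58 to -0.38 between WT stages. Depth limits Fcgr4 (1 to 21 reads) and established Fcrl2 (0 to 97 reads).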
